A study of Mus musculus with 24 samples.

Results

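Bambi, Aplp1, Bglap3 and Khdc1a are genes that were higher in Smarcad1-KO than in WT in several sorted populations of the mouse intestinal epithelium. These 4 members were chosen from the measured values themselves, out of 82 different genes in the deposited tables. Their difference between KO and WT is therefore a description here and not a finding, and no test was made of it. Their sequences and loci are described first, then their levels in each group, and then the differences.

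The study sorted epithelial cells from male C57BL/6 mice and sequenced their mRNA. By the strain label these were Lgr5-GFP mice, in which an allele of the stem cell gene Lgr5 makes GFP. That allele also carries creERT2, a form of Cre recombinase. The study's methods name such mice only for the stem and transit amplifying cells. WT mice were compared with KO mice, in which Vil-Cre, a recombinase driven by the Villin promoter in intestinal epithelium, removed loxP-flanked exons of Smarcad1. Smarcad1 is a chromatin remodeller of the SNF2 family. The KO mice descended from 1 targeted embryonic stem cell clone. The study reports that a mouse line from another clone also overexpressed Bglap3 when Vil-Cre removed the exons. The strain label with Lgr5-GFP was given for every group. Small intestinal crypts gave stem cells (ISC, GFP-high) and transit amplifying cells (TA, GFP-medium). Adult enterocytes (AE) came from small intestinal villi and colon epithelial cells (CO) from colon crypts, both sorted as Epcam-positive cells without CD31 and CD45. There were 24 libraries, 3 for each of 8 groups, and the age of the mice is not given in the sources used here.

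Each deposited table gave 1 log2 value per gene and group, the authors' mean of reads normalised to total reads. Whether they averaged before or after taking the log is not stated, so each fold below is one between deposited values. No value per library was in the tables, so the values below carry no SD, no depth per library is known, and it was not possible to see whether libraries of KO and WT overlapped. A gene was in the table of a cell type (listed) when it passed the authors' DESeq2 limit, an FDR of 0.1, in KO against WT. Smarcad1 itself had lower KO values throughout, with differences from -0.88 in TA to -0.60 in AE on the log2 scale. It was listed in TA and CO and not in ISC or AE. These values count reads over all its exons, of which only the loxP-flanked ones were removed. They therefore do not measure how complete the deletion was. In bulk samples, fewer cells of a type and less RNA per cell cannot be told apart. Of 70 marker genes fixed for the sorted cells and for cells a gate could admit, 2 were in a table, so the identity of the sorted cells could be checked only in part. Ascl2, a transcription factor of intestinal stem cells, had WT levels of 6.05 (ISC), 4.24 (TA), -0.18 (AE) and 3.84 (CO), and so was highest in the population sorted as stem cells. Lyz1, the lysozyme gene of Paneth cells, was also highest there, with WT levels of 9.69 (ISC), 9.12 (TA), 6.11 (AE) and -0.09 (CO).

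The members have different known roles. Bambi is a membrane protein that resembles a TGF-beta family receptor without the intracellular kinase, and it dampens TGF-beta and BMP signalling. Along the intestinal crypt, BMP signalling restrains stem cells and favours differentiation, which is why its inhibitors are studied in this tissue. Aplp1 is a member of the amyloid precursor protein family, known mainly from neurons. Bglap3 is a relative of Bglap and Bglap2, the osteocalcin genes of bone, whose small secreted protein is made by osteoblasts. Khdc1a encodes a KH domain protein of a rodent gene cluster known from oocytes and early embryos.

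The sequences are shown first because they set which reads could be assigned to each gene. Bglap3 (ENSMUSG00000074489) lies on chromosome 3 from 88368616 to 88372743 on the minus strand of GRCm38. In the same direction and upstream of it lie Bglap2, separated by 4992 bp, and Bglap, separated by 10757 bp. The coding sequences of the 3 genes are each 285 bases long. Bglap3 matched Bglap2 at 276 of 285 bases (96.8%) and Bglap at 272 of 285 (95.4%), whereas Bglap2 and Bglap matched each other at 98.6%. Bglap3 was thus the most distant of the 3 in coding sequence. The 60 coding bases with the most differences between Bglap3 (chr3:88368795-88368854, minus strand) and Bglap2 (chr3:88377909-88377968, minus strand) lie in a single coding exon. They are shown with the 5 differing bases in capitals, since a read must cover such a base to be told apart.
Bglap3: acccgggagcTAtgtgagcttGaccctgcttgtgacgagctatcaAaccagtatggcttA
Bglap2: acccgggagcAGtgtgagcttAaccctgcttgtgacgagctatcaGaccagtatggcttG

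Khdc1a (ENSMUSG00000067750) is on the plus strand of chromosome 1, from 21349641 to 21352200, with 1 annotated transcript of 3 exons. Khdc1c follows it after 16130 bp and Khdc1b after 31355 bp, both in the same direction. Khdc1a and Khdc1c had 497 of 498 coding bases in common (99.8%), with 1 identical run of 415 bases. Khdc1b was more distant and matched at 354 of 378 aligned bases (93.7%). The stretch of Khdc1a (chr1:21350949-21351008, plus strand) and of Khdc1c (chr1:21369583-21369642, plus strand) that ends at their one differing coding base is shown with that base in capitals.
Khdc1a: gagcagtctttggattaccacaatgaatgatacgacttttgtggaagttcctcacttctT
Khdc1c: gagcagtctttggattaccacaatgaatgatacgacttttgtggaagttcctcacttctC

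The authors kept uniquely mapped reads of 50 bp. Uniqueness was counted among annotated transcripts and not in the whole genome. Of the 50-mers of Khdc1a, 843 of 1938 (43.5%) also occurred in transcripts of another gene, and 818 of these occurred in Khdc1c. Within the coding sequence the share was 399 of 449 (88.9%), against 444 of 1489 (29.8%) in the rest of the transcript. Most 50-mers particular to Khdc1a among transcripts thus lay outside its coding sequence. For Bglap3 the share was 314 of 2720 (11.5%), with 160 in Bglap2 and 110 in Bglap, and it was 53 of 236 (22.5%) within the coding sequence. None of the 5025 50-mers of Bambi and none of the 3046 of Aplp1 occurred in another gene. Among 76 other genes of the tables the median share was 0%, and 11 of the 76 had a share of at least 10%. The levels of Khdc1a and, less so, of Bglap3 are uncertain in this respect, while neither Bambi nor Aplp1 had a shared 50-mer. None of the members had an overlapping gene.

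Bglap3 has several annotated starts. GENCODE gives it 5 transcripts, and RefSeq promoters covering 250 bases before and 50 after a start were given for 3 starts, the second 1262 bases and the last 2910 bases downstream of the first. The first and the last are shown because they repeat each other. A stretch of 200 aligned bases was 92.0% identical between them, and it lies 100 bases further downstream in the last region than in the first. The capitals mark the longest run common to both, 50 bases, which ends 60 bases before the first start and includes the last start. The regions are chr3:88372692-88372991 and chr3:88369782-88370081 on the minus strand of GRCm38.p6.
Bglap3 first start: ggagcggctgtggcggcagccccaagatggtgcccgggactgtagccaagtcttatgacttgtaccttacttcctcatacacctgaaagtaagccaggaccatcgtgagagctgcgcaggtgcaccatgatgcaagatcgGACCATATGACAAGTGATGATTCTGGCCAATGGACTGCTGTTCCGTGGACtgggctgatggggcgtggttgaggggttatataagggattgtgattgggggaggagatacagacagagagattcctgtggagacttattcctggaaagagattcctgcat
Bglap3 last start: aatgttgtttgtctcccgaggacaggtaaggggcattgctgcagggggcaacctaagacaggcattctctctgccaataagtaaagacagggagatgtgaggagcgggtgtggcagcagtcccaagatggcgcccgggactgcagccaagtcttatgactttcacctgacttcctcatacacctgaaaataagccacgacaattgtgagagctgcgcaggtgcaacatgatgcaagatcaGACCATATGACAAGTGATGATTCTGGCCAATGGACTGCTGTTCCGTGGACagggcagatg

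The shared run holds the letters CCAAT on one strand. Both strands of each region were searched for 4 motifs. The core promoter motif TATAAA was present in 13.6% of all 32851 promoter sequences of the same length. The letters CCAAT were present in 37.4% of them, the motif GGGCGG bound by Sp1 in 35.7%, and the motif TGTGGTT bound by RUNX factors in 5.27%. The Bglap3 regions held CCAAT 2 times at the first start, 1 time at the second and 2 times at the last. They held no exact match to the other 3 motifs. Only exact letters were counted, and the region of the first start holds the similar letters TATATAAG before that start. The promoter of Bglap (chr3:88384417-88384716, minus strand), shown for comparison as that of the bone osteocalcin gene, held TATAAA beginning 27 bases before the start, in capitals here. A match is a description of these letters and not a bound site.
Bglap: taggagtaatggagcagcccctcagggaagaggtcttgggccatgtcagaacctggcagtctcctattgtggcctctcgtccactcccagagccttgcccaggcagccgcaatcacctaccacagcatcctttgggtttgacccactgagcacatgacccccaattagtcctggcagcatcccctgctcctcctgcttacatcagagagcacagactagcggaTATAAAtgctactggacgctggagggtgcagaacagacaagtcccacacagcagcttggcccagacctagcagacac

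Aplp1 (ENSMUSG00000006651) lies on chromosome 7 from 30434982 to 30445535 on the minus strand. Its promoter (chr7:30445533-30445832, minus strand) was rich in GC (68.7%, above 88.5% of all promoters) and held 26 CpG, against a median of 7 over all promoters. Those of Bglap3 had a GC share of 52.0% to 53.3%, and a CpG count of 7 or 8. The Aplp1 promoter held GGGCGG 2 times, in capitals, beginning with a match 24 bases before the start, and none of the other 3 motifs. Members with a promoter sequence thus differed in base composition.
Aplp1: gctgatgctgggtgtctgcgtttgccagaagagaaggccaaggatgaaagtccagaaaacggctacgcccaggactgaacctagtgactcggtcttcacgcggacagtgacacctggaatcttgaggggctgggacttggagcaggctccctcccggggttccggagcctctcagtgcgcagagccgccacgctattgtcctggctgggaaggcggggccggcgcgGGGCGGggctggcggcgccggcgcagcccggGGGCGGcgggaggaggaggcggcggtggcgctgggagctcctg

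Bambi (ENSMUSG00000024232) is on the plus strand of chromosome 18, from 3507957 to 3516404 in the deposited tables. A single protein-coding gene, Cul2, lay within 100000 bp of it. Around Aplp1 there were 9 protein-coding genes within that distance, none of them in a table, and the closest was Kirrel2, 1998 bp upstream on the same strand. Bglap3 had 12 such genes and Khdc1a 4. The study names Kirrel2 among the genes raised repeatedly on loss of Smarcad1, but it has no values here. The closest to Bglap3 was Paqr6 on the opposite strand, 74 bp beyond the end of the gene. The only neighbour of any member that was in a table was Gsta3, a glutathione S-transferase gene 83979 bp upstream of Khdc1a. The other osteocalcin genes and the other Khdc1 genes were in no table, so they have no values here.

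**Figure D1:**
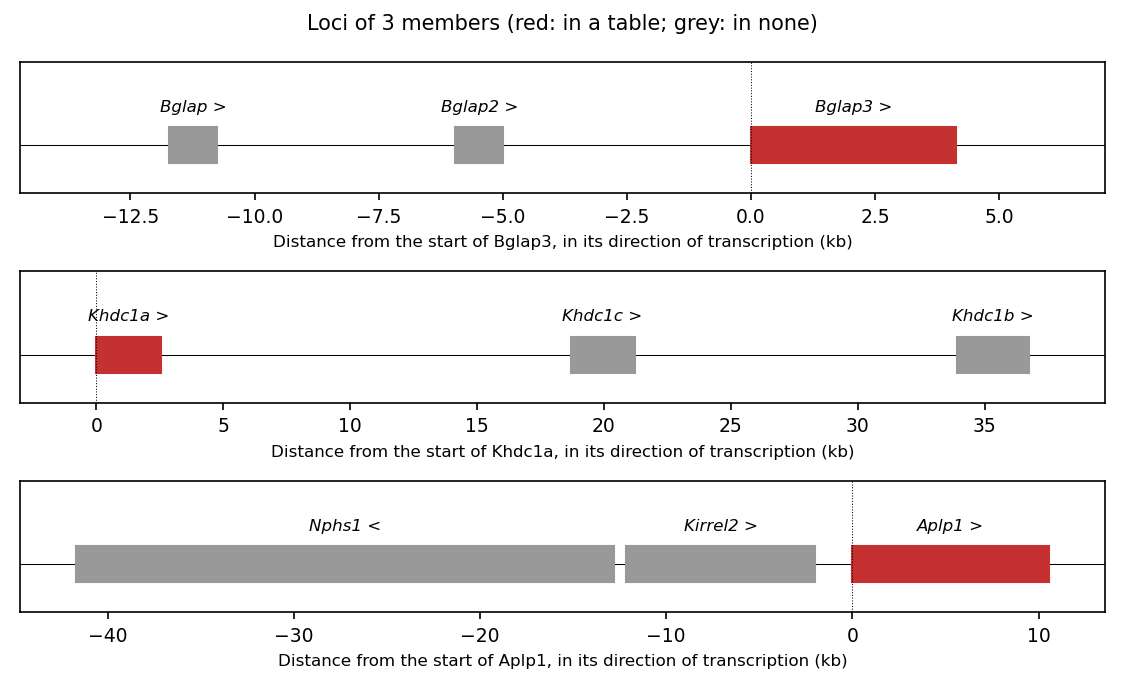
Gene spans around Bglap3, Khdc1a and Aplp1, by distance in kb from the start of the member in its own direction of transcription. Red spans are genes in a deposited table and grey spans are genes in none, and > or < after a name gives the direction relative to the member. Each of the 3 members stands as the 1 red span beside relatives or neighbours that were in no table. Grey does not mean unchanged, and the study names Kirrel2 among the genes raised repeatedly.

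Levels in WT separated the members. A WT value at most 2 log2 units above the lowest value of its column was taken as near the lowest value. All 4 WT values of Khdc1a were in that range and none of the 12 WT values of the other members was. The value just inside was Khdc1a in CO, 1.78 units above the lowest, and the value just outside was Bglap3 in TA, 2.53 units above it. Bambi and Aplp1 were at least 7.16 units above the lowest value in every WT group. Merged exons of Bambi, Aplp1, Bglap3 and Khdc1a covered 5074, 3017, 2629 and 1987 bases. The order of the members by WT level per kilobase of merged exons was the same in ISC, TA and AE, with Aplp1 highest, then Bambi, then Bglap3, then Khdc1a. In AE, these length-adjusted WT levels were 5.67, 0.25, -0.41 and -6.16 on the log2 scale. In CO, Bambi at 0.61 and Bglap3 at 0.47 were too close to order, since the length of Bglap3 includes bases shared with other genes.

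Bambi, the TGF-beta and BMP inhibitor, had WT levels of 1.72 (ISC), 2.38 (TA), 2.59 (AE) and 2.95 (CO) on the log2 scale of normalised reads. Its KO levels were 4.01, 4.13, 2.85 and 5.25 in the same order. In WT the levels spanned 1.23 log2 units over the cell types, and in KO they spanned 2.40 units. The order in WT, from ISC upwards to CO, had neighbours that differed by 0.65, 0.22 and 0.36, and whether these steps exceed the spread between libraries could not be seen from means. In KO the AE value was the lowest, 1.28 below TA, whereas in WT it was 0.22 above TA. The ISC, TA and CO values of KO were all above the highest WT value of any cell type.

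Aplp1, the amyloid precursor family member, was the most abundant of the 4 and followed the crypt to villus order in WT. Its WT levels were 2.39 (ISC), 5.08 (TA), 7.27 (AE) and 3.40 (CO). Its KO levels were 5.06, 6.00, 7.83 and 6.30. The AE level was 4.88 log2 units above the ISC level in WT and 2.77 above it in KO. The KO value in ISC differed from the WT value in TA by -0.02, so these means were about equal. Aplp1 was not listed in ISC, and the spread between libraries is unknown. Only the AE value of KO was above the highest WT value. The order of the cell types was ISC, CO, TA, AE in WT and ISC, TA, CO, AE in KO, where TA and CO lay 0.30 apart.

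Bglap3, the osteocalcin relative, was low in WT cells sorted from small intestinal crypts. It was higher in the more differentiated small intestinal cells and in colon. Its WT levels were -1.96 (ISC), -2.87 (TA), 0.99 (AE) and 1.87 (CO). The KO levels were 2.73, 3.07, 6.17 and 5.10. All 4 KO values were above the highest WT value, which was that of CO. The step from ISC to AE was 2.95 log2 units in WT and 3.44 in KO. In KO the AE level was 1.07 above that of CO, whereas in WT it was 0.88 below.

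Khdc1a, the oocyte and embryo gene, was near the lowest value in every WT group. Its WT levels were -4.53 (ISC), -4.49 (TA), -5.17 (AE) and -3.51 (CO), and its KO levels were -0.16, -0.16, -5.13 and 2.28. In AE both the WT and the KO value were the lowest of their column, a value that 3 genes had in WT and 4 in KO, so no fold is given there. The KO levels spanned 7.41 log2 units, the widest range among the members, from the lowest value in AE to CO. Even in KO CO, its length-adjusted level of 1.29 was below those of Aplp1 (4.71), Bglap3 (3.71) and Bambi (2.91). Of the 50-mers of Khdc1a, 43.5% were shared with other genes, so this level may be too low.

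**Figure D2:**
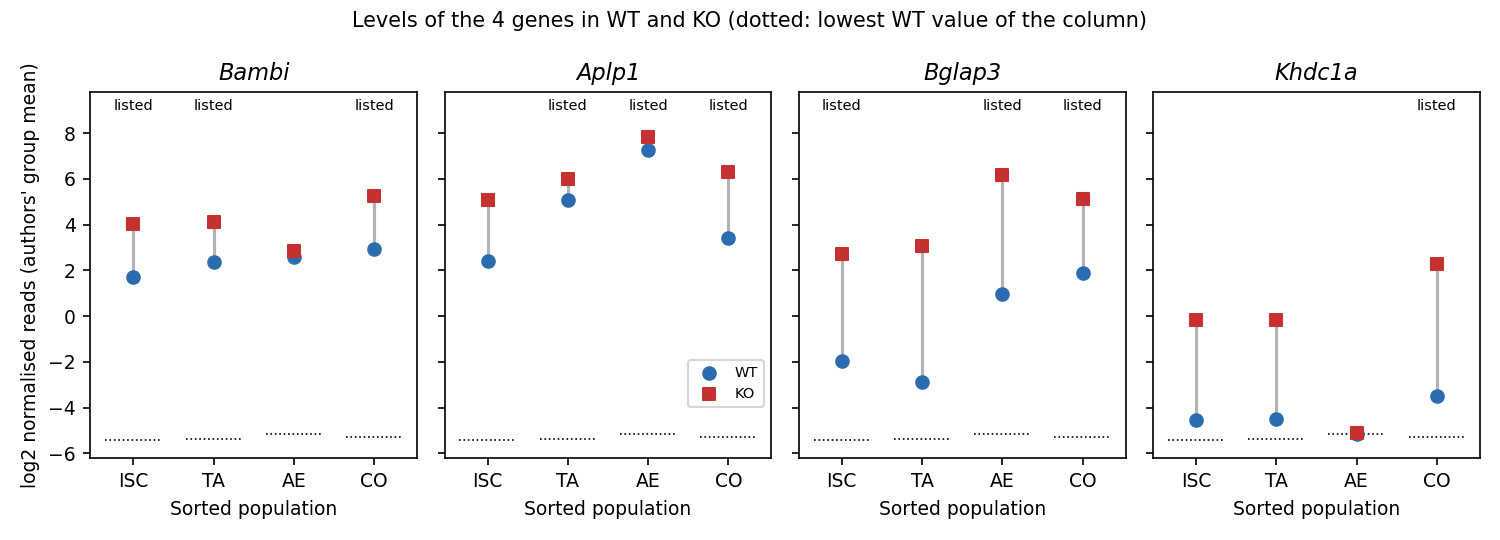
Authors' group means of the 4 genes in WT (blue circles) and KO (red squares) by sorted population, in log2 normalised reads. Dotted lines give the lowest WT value of each column and "listed" marks a population whose table holds the gene. KO values lie above their WT values, by 0.26 for Bambi in AE, and both AE values of Khdc1a sit at the lowest value.

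Among the members, 3 of 4 had at least 3 KO values above the highest WT value of any cell type (Bambi 3, Bglap3 4, Khdc1a 3), against 6.1% of the 82 genes. Aplp1 had 1, as its WT level in AE was already above its KO levels elsewhere. The range over the cell types was smaller in KO than in WT for 2 of 4 members, Aplp1 and Bglap3, against 72% of the 82 genes. The members were chosen for high KO values, so these counts describe them and support nothing.

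The differences KO minus WT were positive in 15 of 16 pairs of member and cell type, and at least 1 on the log2 scale (2-fold) in 12. The remaining pair was Khdc1a in AE, at the lowest value in WT and in KO. The tables listed 10 of the 16 pairs. Both measures used the contrast by which the members were chosen, and the shares over all 82 genes are given for scale only. At least 2-fold higher in KO were 4 of 4 members in ISC (26.8% of all genes in the tables), 3 of 4 in TA (17.1%), 1 of 4 in AE (15.9%) and 4 of 4 in CO (15.9%). Listed and higher in KO were 2 of 4 members in ISC (6.1% of all), and the CO table listed 4 of 4 (14.6%). In TA the count was 2 (12.2%) and in AE it was also 2 (20.7%). The median difference of the members was 3.52 (ISC), 3.04 (TA), 0.41 (AE) and 3.07 (CO), beside medians over all 82 genes of 0.41, 0.18, -0.11 and -0.81. Without Khdc1a, the AE median of the members was 0.56.

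In ISC and TA, Bglap3 and Khdc1a had the 2 largest differences of all 82 genes. Bglap3 was higher by 4.69 in ISC, which is 25.9-fold, and by 5.94 in TA, which is 61.4-fold. Khdc1a was higher by 4.37 and 4.33, or 20.6-fold and 20.1-fold, although neither table listed it. The TA table did not list Bglap3 either, whereas the ISC table did. In AE, Bglap3 ranked first at 5.19 (36.4-fold). In CO, Khdc1a ranked first at 5.79 (55.1-fold), followed at rank 3 by Bglap3 with 3.24 (9.43-fold) and at rank 5 by Aplp1 with 2.89 (7.44-fold), and all were listed.

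Bambi and Aplp1 had smaller differences from higher WT levels. Bambi was higher by 2.29 in ISC (4.90-fold), by 1.75 in TA (3.36-fold) and by 2.30 in CO (4.92-fold), all listed. Its AE difference was 0.26 (1.19-fold) without a listing and ranked 25 of 82. Aplp1 differed by 2.68 in ISC (6.39-fold) without a listing. Its listed differences in TA and AE were 0.91 (1.88-fold) and 0.56 (1.48-fold), both under 2-fold. The 0.56 in AE was the smallest difference among genes listed as higher in that table.

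Without genes at the lowest value in both AE groups, among them Khdc1a, AE held the smallest of the 4 differences for 2 of 3 members, Bambi and Aplp1, against 11.4% of 79 genes. Of all 82 genes, 56 were listed in CO, where the median difference was -0.81. The share thus depends on how genes came into the tables, and the members were chosen on the same contrast. The count is a description only. For Bglap3 the smallest was in CO. Aplp1 had its highest WT level in AE. A difference between cell types in the effect of KO was not tested, for want of values per library.

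**Figure D3:**
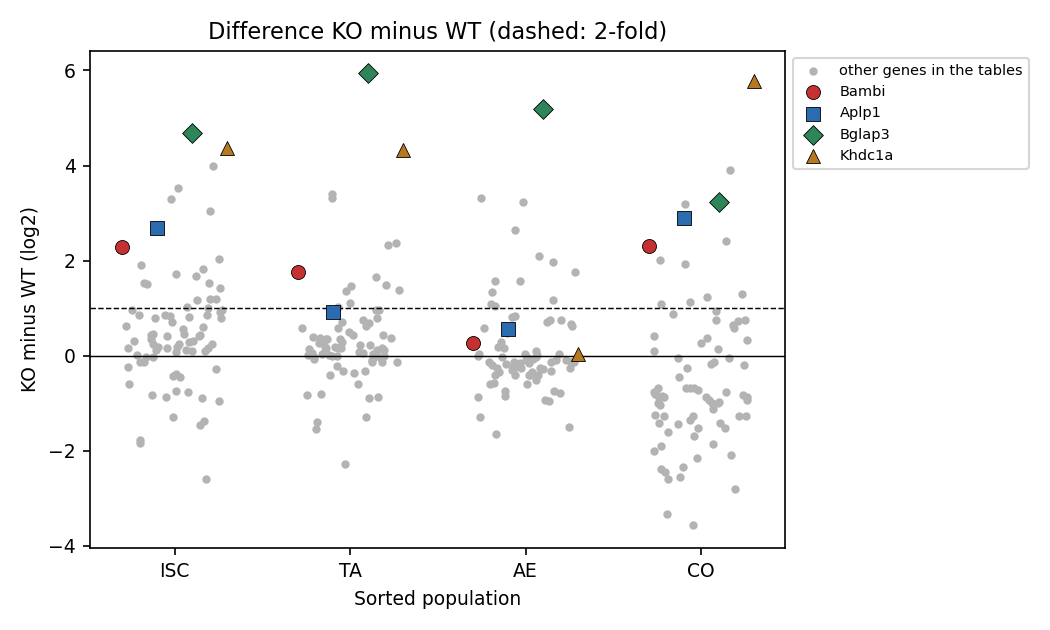
Difference KO minus WT on the log2 scale, by sorted population, for the 4 members (large symbols) and the other genes of the tables (grey dots, spread sideways for visibility). Solid and dashed lines mark no difference and 2-fold. Bglap3 is the highest symbol in ISC, TA and AE and Khdc1a in CO, while Bambi and Aplp1 fall under the 2-fold line in AE. The AE symbol of Khdc1a, near 0, stands for values at the lowest in both groups.

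The size of the difference in low-level genes depended on how low values were treated. With a pseudocount of 1 on the linear scale, the Khdc1a differences in ISC and TA were 0.86 and 0.86, both under 2-fold, and that in CO was 2.43. For Bglap3 the same pseudocount gave 2.60 (ISC), 3.05 (TA), 4.62 (AE) and 2.93 (CO). Under it the largest Bglap3 difference was in AE instead of TA. Among the Bambi and Aplp1 differences, Bambi in ISC moved most, from 2.29 to 2.00.

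**Figure D4:**
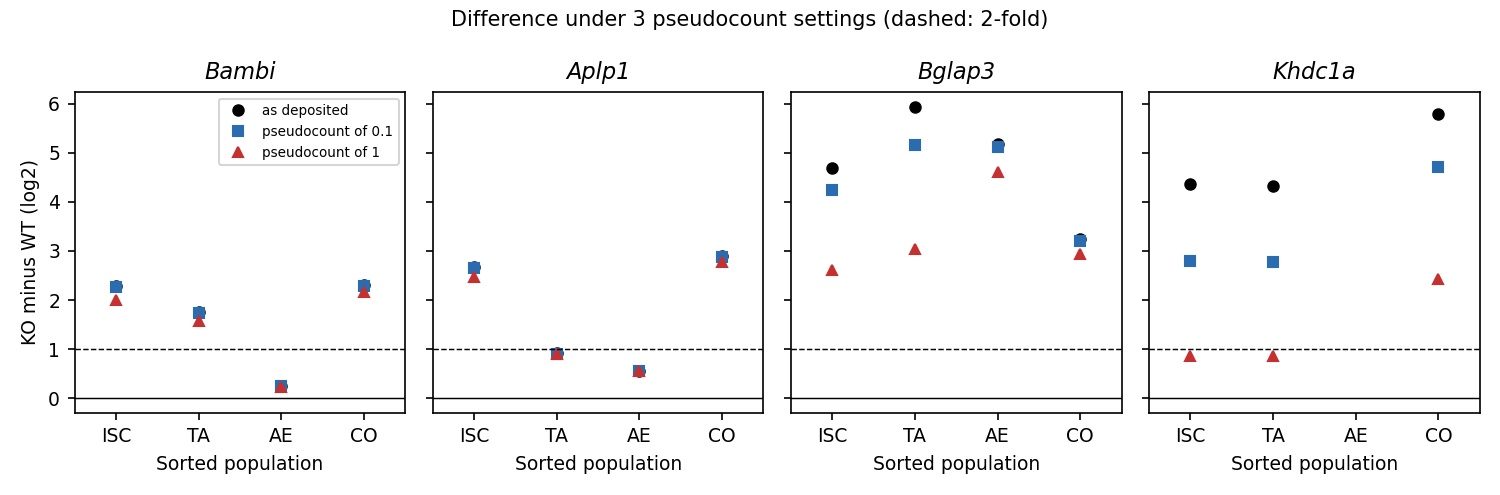
Difference KO minus WT on the log2 scale for each gene and population, from the deposited values (black circles), with a pseudocount of 0.1 (blue squares) and with a pseudocount of 1 (red triangles). Khdc1a in ISC and TA falls from above 4 to 0.86 with a pseudocount of 1, whereas the largest moves are from 2.29 to 2.00 for Bambi and from 2.68 to 2.47 for Aplp1, both in ISC. No point is drawn for Khdc1a in AE, where both groups were at the lowest value.

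Genes with the most similar pattern were sought by Pearson's r over the 8 group means, each the mean of 3 libraries. Both genes of a pair were read in the same libraries, and the members were chosen for being higher in KO, so r is a description and carries no p. The pair with the highest r among the members was Bambi and Khdc1a (r = 0.94, Spearman's rho 0.79), both of which were lowest in AE among the KO groups. All WT values of Khdc1a and its KO value in AE lay near or at the column's lowest value. This limits what r can show for the pair. By rho, Bambi was not among the 3 genes most like Khdc1a, which included Sox12 (0.86) and Slc1a4 (0.83). Bglap3 and Aplp1 had r = 0.62, and Aplp1 and Khdc1a had r = 0.06. Among 81 other genes, those most like Bambi after Khdc1a were Gsta3 (r = 0.74) and the metallothionein gene Mt1 (r = 0.69). Most like Aplp1 were Rtn4r, a receptor for myelin inhibitors (r = 0.79), Clic5 (r = 0.75) and Slc6a19, the main neutral amino acid transporter of the enterocyte brush border (r = 0.75). Those most like Bglap3 were Slfn4 (r = 0.83), Rtn4r (r = 0.81) and Mt1 (r = 0.79). After Bambi, those most like Khdc1a were Sox12 (r = 0.73) and Slc1a4 (r = 0.69).

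Other genes of the pathways to which the members belong were looked for in the tables. None of 40 genes of the TGF-beta and BMP pathway was in a table, and none of 18 genes of the amyloid precursor family and its processing. The same was true of 17 osteocalcin and osteoblast genes and of 14 Khdc1 relatives and oocyte genes. Of 15 Wnt target genes, Ascl2 was in 1 table, with a listed difference of 1.08 in CO and unlisted differences of -0.45 in ISC, 0.17 in TA and -0.05 in AE. A gene absent from all tables has no value here, so its level and any smaller difference are not known.

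Of 7 further genes that the study names as raised repeatedly, a choice made on these same libraries among others, 4 were in a table. Mt1, in all 4 tables, had differences of 1.53 (ISC), 1.36 (TA), 3.23 (AE) and 2.01 (CO). Lyz1, lysozyme of Paneth cells, had differences of 1.20 (ISC) and 1.64 (TA) without a listing, and of 2.11 (AE) and 3.20 (CO) with one. Itln1 was listed in TA and AE, with differences of 1.38 and 1.76, and not in ISC (1.72) or CO (0.64). Slfn4 was listed in TA and AE as well, with 1.47 and 1.34, and not in ISC, where it was 2.83-fold higher in KO, or in CO, where its KO level was below WT with a difference of -0.46. Lyz1 was the 1 marker of 6 fixed for Paneth cells that was in a table, and the marker lists for osteoblasts, neurons and glia, immune cells and stroma had none. The part of other cells in the members' differences was not tested.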

How the data were processed

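mRNA-seq of 24 libraries (3 per group, 8 groups) was analysed. Libraries were made from 10 ng of RNA per the labels, by poly(A) selection and 15 PCR cycles, and read as 50 bp single reads. The study describes 10 ng as the upper end of a range of inputs, with RNA of varying integrity. Sorts gave between 1000 and 80000 cells for ISC, between 1000 and 135000 for TA, 100000 for AE and between 75000 and 100000 for CO. The authors trimmed reads with Trim Galore 0.4.4, aligned them with HISAT2 2.1.0 to GRCm38, kept uniquely mapped reads and counted them in SeqMonk over exons of merged isoforms. Whether strand was used in counting is not stated. The deposited tables give log2 group means of reads normalised to total reads, by the authors and not per gene length. The FDR column holds the adjusted p-value of the authors' DESeq2 test, used here only to check that no row exceeded 0.1. Depth and spread between libraries are unknown, so nothing was tested.

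The differences of the authors' log2 values, their ranks among 82 genes, a level class (within 2 log2 units of the column's lowest value) and Pearson's r over 8 group values were computed. Length-adjusted levels subtract the log2 of merged exon kilobases in GENCODE M21. The span of Bambi differed there at its 5′ end, and the other 3 members matched exactly. The 50-mers were to be counted in the genome, which was not used here, and were counted in GENCODE M21 transcripts on both strands instead. Promoters came from RefSeq (GRCm38.p6), in which 2 of 4 members matched. Coding sequences were aligned end to end. The k-mer count and the search for similar patterns were tested on simulated data. Python 3.11.15, pandas 2.3.3, scipy 1.17.1, biopython 1.88 and matplotlib 3.10.9 were used.

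The members and gene lists were chosen with earlier results of these data known. Named genes were the 4 members, Smarcad1, the 3 genes most like each member, every gene of a fixed list in a table and the members' relatives. The alternatives were pseudocounts of 1 and 0.1, values raised to at least 0.1, centring, fold limits of 0.5 and 2 on the log2 scale, class limits of 1 and 3 units, Spearman's rho and 40-mers.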

Additional observations from a re-analysis of the deposited data

How the results depend on the processing

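No paired analysis was possible because the tables held group means only, which also left no replicate to leave out. No difference changed sign under any alternative run. A pseudocount of 1 gave Bambi 2.00 (ISC), 1.58 (TA) and 2.16 (CO), Aplp1 2.47 (ISC) and 2.78 (CO), Bglap3 2.60 (ISC), 3.05 (TA), 4.62 (AE) and 2.93 (CO), and Khdc1a 0.86 (ISC), 0.86 (TA) and 2.43 (CO). A pseudocount of 0.1 gave Bglap3 4.24 (ISC) and 5.17 (TA), and Khdc1a 2.80 (ISC), 2.78 (TA) and 4.72 (CO). Raising values to at least 0.1 gave Khdc1a 3.16 (ISC), 3.16 (TA) and 5.60 (CO). Centring each cell type on the median difference of genes its table did not list (0.34 (ISC), 0.15 (TA), -0.16 (AE) and 0.11 (CO)) gave Bambi 1.95 (ISC), 1.60 (TA), 0.42 (AE) and 2.19 (CO), Aplp1 2.33 (ISC), 0.76 (TA), 0.72 (AE) and 2.78 (CO), Bglap3 4.35 (ISC), 5.79 (TA), 5.35 (AE) and 3.12 (CO), and Khdc1a 4.03 (ISC), 4.17 (TA) and 5.67 (CO). Each gene used for centring was listed in another cell type, so these genes were no neutral background, and CO had 26 of them. With a limit of 0.5 in place of 1, 2 members counted as higher in AE and 4 in TA. A limit of 2 gave 2 members in TA. With a pseudocount of 1, the members at least 2-fold higher were 3 in ISC and 2 in TA. Over all cell types the counts under these settings were 14, 11 and 10, against 12. By Spearman's rho, 1 of the 3 genes most like Aplp1 and 1 of the 3 most like Bglap3 stayed among the top 3. For Bambi and for Khdc1a it was 2 of 3, and the gene lost for Khdc1a was Bambi. With 40-mers, the share found in no other gene was 99.9% for Bambi, 84.5% for Bglap3 and 49.7% for Khdc1a, against 100%, 88.5% and 56.5% with 50-mers, as shorter sequences match more places. WT values near the lowest numbered 3 within 1 log2 unit and 5 within 3, against 4 within 2.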

Other observations

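Of the 82 genes, 4 were at least 2-fold higher in KO in all 4 cell types, and they were named after their values were seen: Bglap3, Mt1, Lyz1 and AC151971.2. AC151971.2 had differences of 2.03 (ISC), 2.32 (TA), 2.64 (AE) and 3.91 (CO), from WT levels of 0.24, 1.49, 1.23 and -0.97. Bglap3 had the largest of these differences in ISC, TA and AE, and AC151971.2 in CO. Another 6 genes reached 2-fold in exactly 3 cell types, namely Bambi, Khdc1a, Itln1, Slfn4, Tlr4 and Mctp1. In Tlr4 and Mctp1, as in the members, these are means without a spread.

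The WT value of Khdc1a lay 0.91 log2 units above the lowest value of its column in both ISC and TA, and its KO values lay 5.04 and 5.05 units above theirs. In CO the corresponding distances were 1.78 and 7.61 units, and in AE both were 0.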
